A study of Mus musculus with 4 samples.

Results

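The AP-1 transcription factor RNAs are those of Fos, Fosb, Fosl1, Fosl2, Jun, Junb, Jund and Atf3. They were chosen by gene symbol: every probe set whose platform annotation gives exactly 1 symbol, that symbol being 1 of these 8. The rule found all 8 of them among 18193 genes named on the array, as 12 of its 45101 probe sets, and a probe set is the group of short oligonucleotides that measures a transcript. The arrays measured RNA of NIH/3T3, an established mouse fibroblast line. All cells were starved of serum overnight, spread for 2 h on a porous membrane of 24 mm diameter coated with fibronectin on both sides, and then received lysophosphatidic acid (LPA) at 150 ng/ml from below for 1 h before fixation with 0.3% formaldehyde for 10 min. There were 4 arrays: 2 of pseudopodia, the protrusions scraped from the underside of the membrane, and 2 of cell bodies, scraped from the upper side, so both groups carried the same LPA treatment. Unstimulated cells were not analysed here.

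AP-1 is a dimer of basic leucine zipper (bZIP) proteins. Jun proteins pair with one another or with Fos proteins, whereas Fos proteins need a Jun partner, and the pair binds DNA at sites in the promoters of growth, motility and matrix genes. In fibroblasts several of these genes are immediate-early genes: growth factors, serum and LPA switch them on within minutes without new protein synthesis, and their RNAs carry signals for rapid decay. The comparison asks how the RNAs made in the nucleus are shared between the protrusion and the cell body.

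The promoters of the 4 genes whose RNAs stood lowest in pseudopodia below, and that of Jund, whose RNA did not, are shown for the cis elements that background knowledge ties to their induction. The letters are the 120 bases before the RefSeq start site (build GRCm38.p6), read 5′ to 3′ on the gene's strand, and 7 of the 8 members (not Fosl1) were matched by symbol. Capitals mark matches to a cyclic AMP response element core (TGACGT, or TGACNTCA) or to a TATA box (TATAAA), each searched on both strands.
Fos, chr12:85473770-85473889, + strand: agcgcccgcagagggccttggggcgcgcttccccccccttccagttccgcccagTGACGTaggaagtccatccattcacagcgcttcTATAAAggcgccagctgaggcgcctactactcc
Fosb, chr7:19310046-19310165, - strand: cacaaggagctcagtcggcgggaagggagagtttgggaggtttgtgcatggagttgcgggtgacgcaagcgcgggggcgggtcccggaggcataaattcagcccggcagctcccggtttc
Jun, chr4:95052223-95052342, - strand: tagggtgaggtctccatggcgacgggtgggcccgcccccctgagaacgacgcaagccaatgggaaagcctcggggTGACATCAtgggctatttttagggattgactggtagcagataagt
Junb, chr8:84978749-84978868, - strand: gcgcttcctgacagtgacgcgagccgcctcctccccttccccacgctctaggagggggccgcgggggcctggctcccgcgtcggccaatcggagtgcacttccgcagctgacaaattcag
Jund, chr8:70697619-70697738, + strand: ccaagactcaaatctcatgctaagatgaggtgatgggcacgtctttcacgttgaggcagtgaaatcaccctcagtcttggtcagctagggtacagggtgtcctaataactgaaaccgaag
In the 250 bases before the start, TGACGT was found in Fos and Atf3, and in 6.47% of all 32851 promoters of the same length. TGACNTCA, the Jun element, was found in Jun alone of the 7 and in 7.49% of all promoters, and TATAAA in Fos alone and in 12.4%. The AP-1 site TGANTCA and the CArG box, to which serum response factor binds, had no match in these windows of the 7 (6.75% and 1.47% of all promoters). TGACGTCA, which overlaps both TGACGT and TGACNTCA, had none either (1.55% of all). Sites farther than 250 bases before the start were not searched, so a missing match does not mean that the gene lacks the element. A match is a string of letters only, and the arrays did not measure binding.

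Values are the deposited MAS5 signals, the array software's linear intensity per probe set. Differences are log2 of pseudopodia over cell body on the log2(signal + 32) scale after scaling each array to a trimmed mean of 500, ± SE of a limma fit with n = 2 arrays per group, and they understate changes of dim probe sets. Of the 12 probe sets, 11 passed the filter on dim probe sets, which fell at a deposited signal of about 27.8, and each of the 8 genes kept at least 1. A call means a Benjamini-Hochberg adjusted p under 0.05 over the 22519 probe sets kept. The design text calls the samples independent and does not say how cultures were separated, so p-values cover the spread between these arrays. The replicate 1 arrays of both fractions were scanned on 1 day and the replicate 2 arrays on another, and a fit with the replicate number as a block is given for the named genes and lists whose calls it alters. In these bulk fractions fewer contributing cells and less RNA per cell cannot be told apart, and every value is relative to its fraction's total signal.

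As for the cell type, 8 of 11 fibroblast markers had a kept probe set, the collagens Col1a1, Col1a2 and Col3a1 with signals of 10451.0 to 23256.3, while Thy1, Postn and Lum were under the filter. The summed signal of the fibroblast list was 173083.7 to 177157.1 in cell bodies and 166021.4 to 176525.1 in pseudopodia. Of the 4 blood markers measured only Cd68 passed the filter, with summed signals of 87.0 to 106.6 and 31.5 to 118.2. Epithelial markers (4 of 7 kept) summed to 4600.4 to 5079.8 and 4276.9 to 4367.1, and endothelial and muscle markers (1 of 7 kept) to 148.3 to 154.1 and 243.9 to 262.1. On their brightest kept probe sets none of these markers was called in either direction in limma's test. With the block 3 fibroblast markers were lower, as were 11.3% of all kept probe sets. Other kept probe sets of fibroblast markers could differ: Fn1 stood at -2.56 beside -0.06 on its brightest, and Pdgfrb at -1.29 beside -0.34. Those of Col1a2 and Col3a1 and 1 of Pdgfra were also lower than the brightest. Those of Col1a1 (0.41) and Vim (0.42 and 0.49) and the other of Pdgfra (0.19) were positive. The 3′ to 5′ signal ratio of the beta-actin control, a sign of RNA integrity, was 1.55 and 1.89 in cell bodies against 1.77 and 3.41 in pseudopodia, and that of Gapdh 0.919 and 0.946 against 0.960 and 1.01. The part of RNA integrity in the differences below was not tested.

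Jun and Fosb RNA was lower in pseudopodia than in cell bodies, at 0.441 and 0.419 of the cell body level in the fit. Fos and Junb RNA had values of the same size, 0.416 and 0.443, that did not pass the test, those of Fosl1, Fosl2 and Atf3 were nearer to 1, and Jund was the 1 gene of the 8 with a higher value in pseudopodia (1.36) on its brightest probe set, also without passing. Of the 11 kept probe sets, 2 were called lower (Jun and Fosb) and none higher in limma's test (4 and 0 at an unadjusted p under 0.05, which 13.3% and 8.66% of all kept probe sets passed in these directions). Among all kept probe sets 3.32% were called lower and 1.08% higher (747 and 243, a split that was 472 and 385 after median centring and 1869 and 71 when scaled on hybridization controls). With the replicate number as a block, 4 were lower (Jun, Fosb, Fos and Junb) and 1 higher (Jund), where 11.3% and 6.84% of all kept probe sets were lower and higher. That fit has 1 residual degree of freedom and leans on a prior worth 16.8, so its p-values rest mostly on spread shared across probe sets. Both pseudopodia arrays lay below both cell body arrays for 6 of the 11 and above them for 1, against 28.2% and 24.8% of all kept probe sets. At least 1.5-fold lower in each of the 4 array pairs were 3 (Jun, Fosb and Junb), against 7.86% of all, and none was that much higher, against 2.79%. With each gene at its brightest kept probe set, the 8 members had a median of -0.77 (-0.52 in the replicate 1 pair and -0.76 in the replicate 2 pair), beside 0.01 for all 10962 genes. The median was -0.61 to -1.11 under 3 other scalings and -0.54 when all kept probe sets of a gene were averaged.

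**Figure D1:**
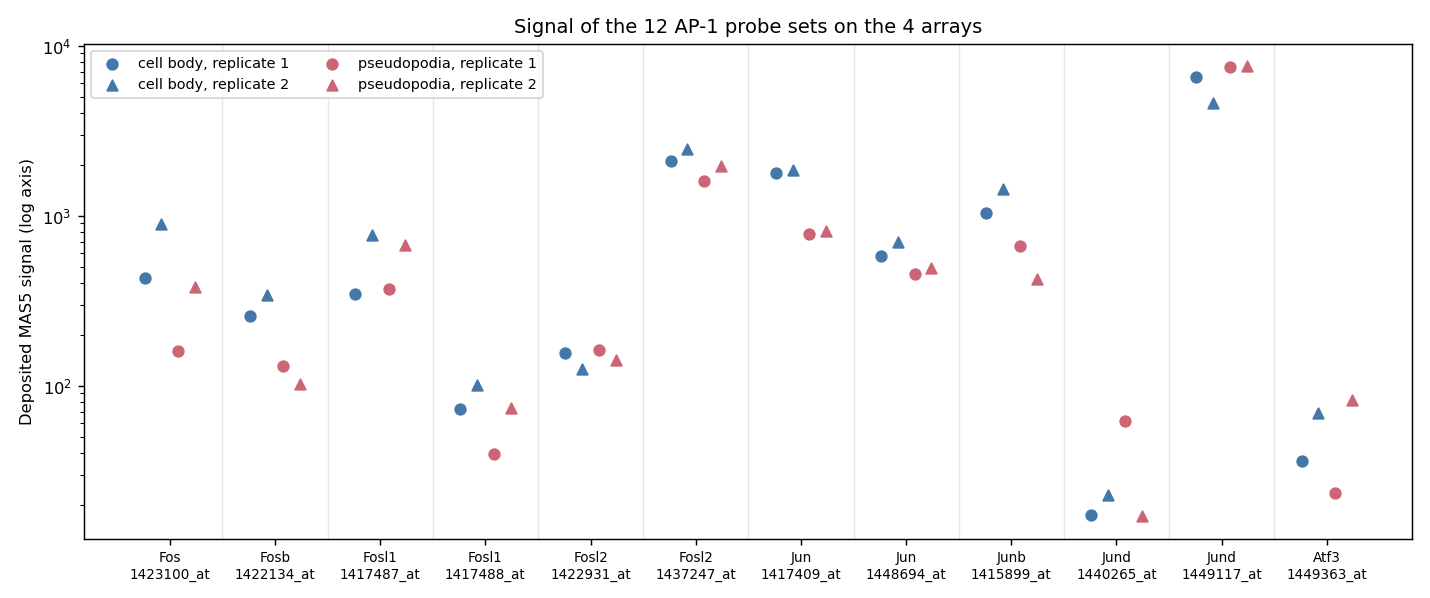
Deposited MAS5 signal (log axis) of the 12 AP-1 probe sets on the 4 arrays; blue marks cell bodies, red pseudopodia, circles replicate 1 and triangles replicate 2. Both red marks lie below both blue marks for Fos, Fosb, Junb, both Jun probe sets and Fosl2 1437247_at, and above them for Jund 1449117_at.

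Jun encodes c-Jun, the subunit with the strongest transactivation in the Jun family. Its brighter probe set, 1417409_at, gave signals of 1793.9 and 1866.7 in the cell bodies of replicates 1 and 2, and of 785.5 and 810.1 in the pseudopodia. The pseudopodia thus held 43.8% and 43.4% of the cell body signal in the replicate pairs, with no overlap and almost no spread between replicates. The difference was -1.18 ± 0.18 (adjusted p = 0.0245). The dimmer Jun probe set, 1448694_at, which is designed from the same RefSeq record, gave 581.4 and 702.4 in cell bodies against 453.2 and 489.2 in pseudopodia. It was lower in both pseudopodia arrays too, but at -0.43 ± 0.21 it did not pass (adjusted p = 0.293). The log2 ratio of the brighter to the dimmer Jun probe set therefore changed between the fractions by -0.83 and -0.68 in the 2 pairs, without overlap of the arrays (exact permutation p = 0.333, two-sided, the smallest that 2 against 2 arrays can give). Where the probes lie in the transcript was not analysed here.

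Junb, a Jun relative that often opposes c-Jun, gave 1033.3 and 1433.1 in cell bodies against 658.9 and 426.6 in pseudopodia. The fractions did not overlap, yet the size of the gap varied, at -0.64 in the replicate 1 pair and -1.71 in the replicate 2 pair. The mean of -1.17 ± 0.28 lay just outside the threshold (adjusted p = 0.0582). It was called with the block (adjusted p = 0.0014), and its adjusted p ran from 0.000139 to 0.364 over all alternatives.

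Jund encodes JunD, the Jun protein that quiescent fibroblasts also make and that depends least on a stimulus. Its brightest probe set, 1449117_at, read 6578.6 and 4630.9 in cell bodies against 7507.4 and 7549.1 in pseudopodia. Both pseudopodia arrays were the higher ones, by 0.19 and 0.70 in the replicate pairs. The mean of 0.45 ± 0.19 did not pass (adjusted p = 0.233), and passed with the block (adjusted p = 0.0394, the lowest over its alternatives, which reached 0.81). The other Jund probe set, 1440265_at, was under the filter and read 17.4 and 22.9 in cell bodies against 62.3 and 17.1 in pseudopodia, values at which the fractions overlapped. Within the same arrays the log2 ratio of Jun to Jund changed from cell bodies to pseudopodia by -1.37 and -1.89 in the pairs, and that of Junb to Jund by -0.83 and -2.41. Neither ratio overlapped between fractions, and the exact permutation p was 0.333 for each (two-sided, the smallest possible). A ratio within an array shows unequal change only.

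**Figure D2:**
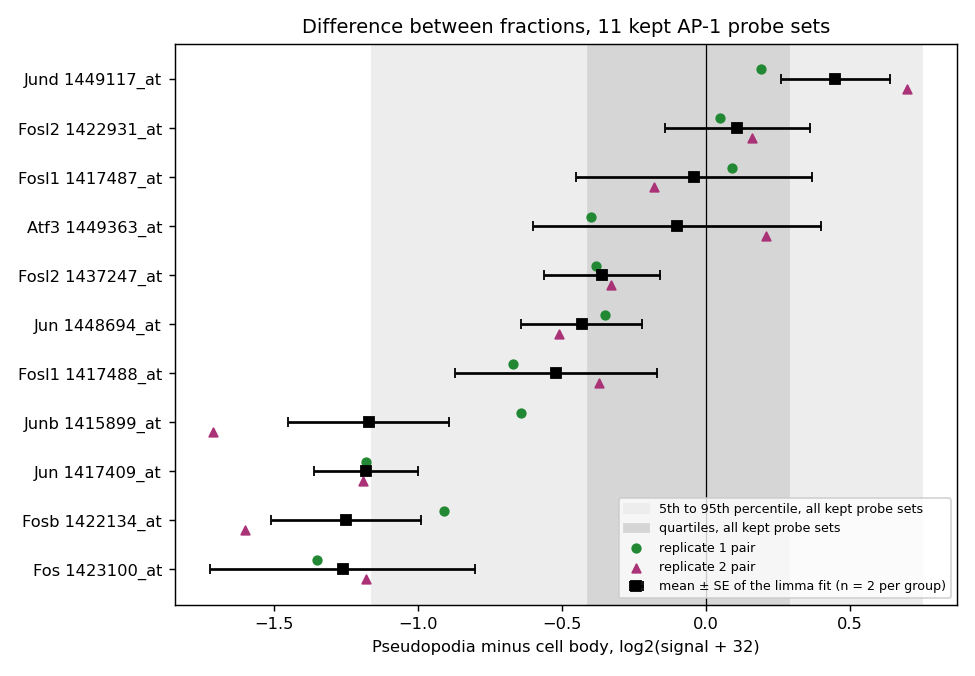
Log2 difference between pseudopodia and cell bodies for the 11 kept AP-1 probe sets: black squares with bars are the mean ± SE of the limma fit, green circles the replicate 1 pair and purple triangles the replicate 2 pair; shading gives the quartiles and the 5th to 95th percentiles of all kept probe sets. Fos, Fosb, Jun 1417409_at and Junb lie between -1.26 and -1.17, near the 5th percentile of all at -1.16, and Jund 1449117_at at 0.45 lies above the upper quartile of 0.29.

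Fos encodes c-Fos, the founding immediate-early partner of c-Jun. Its single probe set, 1423100_at, read 428.7 and 890.7 in cell bodies against 159.0 and 383.1 in pseudopodia. Replicate 2 was 2.08 and 2.41 times as bright as replicate 1 in the 2 fractions, while the pseudopodia held a similar share of the cell body signal in each pair, 37.1% and 43.0%. The pseudopodia array of replicate 2 fell only just under the cell body array of replicate 1. The difference of -1.26 ± 0.46 did not pass (adjusted p = 0.158). With the block, which takes the level of each replicate out, the SE was 0.21 and the difference passed (adjusted p = 0.000451). Over all alternatives the adjusted p ran from 0.000305 to 0.59. Leaving out 1 array breaks a pair, and the value then ran from -0.67 without pseudopodia replicate 1 to -1.86 without pseudopodia replicate 2.

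Fosb, a Fos protein of the same early wave, was called. Its signals were 258.5 and 343.9 in cell bodies against 129.9 and 103.0 in pseudopodia, so the fractions were well apart. The pseudopodia held 50.3% and 30.0% of the cell body signal in the pairs. The difference was -1.25 ± 0.26 (adjusted p = 0.0437). The call was narrow: over the alternatives the adjusted p ran from 0.00125 to 0.304, and it passed neither without the filter (0.0971) nor with a pseudocount of 1 (0.0512).

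Fosl1 (Fra-1), a Fos relative without a classical transactivation domain that accumulates later and persists in motile cells, showed no separation on its brighter probe set. That probe set, 1417487_at, read 345.8 and 768.8 in cell bodies against 370.4 and 674.7 in pseudopodia, a difference of -0.04 ± 0.41 (adjusted p = 0.965). Replicate 2 was again the brighter one, 2.22 and 1.82 times. The dimmer 1417488_at read 72.7 and 100.3 against 39.8 and 74.0, at -0.52 ± 0.35 (adjusted p = 0.429). Its fractions overlapped narrowly, although both pairs were lower in pseudopodia.

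Fosl2 (Fra-2) gave 2091.0 and 2481.2 in cell bodies against 1602.3 and 1966.8 in pseudopodia on its brighter probe set, 1437247_at. All pseudopodia values were lower, by -0.38 and -0.33 in the pairs, and the difference of -0.36 ± 0.20 did not pass (adjusted p = 0.338). The dimmer 1422931_at read 155.0 and 125.7 against 161.4 and 142.5, at 0.11 ± 0.25 (adjusted p = 0.845), with overlap. In the same arrays the log2 ratio of Fos to Fosl1, each gene at its brighter probe set, changed by -1.44 and -1.0 in the pairs, and that of Fosb to Fosl1 by -1.01 and -1.41. The ratios to Fosl2 changed by -0.96 and -0.85 for Fos and by -0.53 and -1.26 for Fosb. All 4 ratios separated the fractions without overlap, with an exact permutation p of 0.333 (two-sided, the smallest possible). Like the ratios to Jund, they are built from signals given above and are not separate results. How often ratios of other probe sets separate the fractions was not counted. In all, 10 such ratios were examined, and their Benjamini-Hochberg adjusted p cannot reach 0.05 either. That of Fos to Jun changed by -0.08 (exact permutation p = 1.0), with overlap of the arrays.

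Atf3, a stress-induced bZIP repressor that pairs with Jun proteins, was dim. Its probe set read 36.1 and 69.1 in cell bodies against 23.5 and 82.2 in pseudopodia. The pairs had opposite signs, and the difference was -0.10 ± 0.50 (adjusted p = 0.936). At this signal a localization of Atf3 RNA was not detectable with 2 arrays a group.

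The members also differed in how far the replicates stood apart, a quantity apart from the difference between fractions. Fos, Fosl1 on its brighter probe set, and Atf3 were at least 1.5-fold higher in replicate 2 than in replicate 1 in both fractions, 3 of 11 probe sets, a property of 1.79% of all kept probe sets. Their shifts were, in that order, 1.03, 1.12 and 0.71 log2 units in cell bodies and 1.19, 0.84 and 1.31 in the pseudopodia. Both Jun probe sets shifted little, by 0.06 and 0.27 in cell bodies against 0.04 and 0.11 in pseudopodia, whereas those of Junb and Fosb were positive in cell bodies (0.47 and 0.39) and negative in pseudopodia (-0.61 and -0.29). Among 16 other immediate-early genes with a kept probe set, 8 were at least 1.5-fold higher in replicate 2 in both fractions, with Egr3 up by 3.09 and 2.58 and Egr1 by 1.71 and 1.51. Replicate number, scan day and experiment cannot be told apart here.

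**Figure D3:**
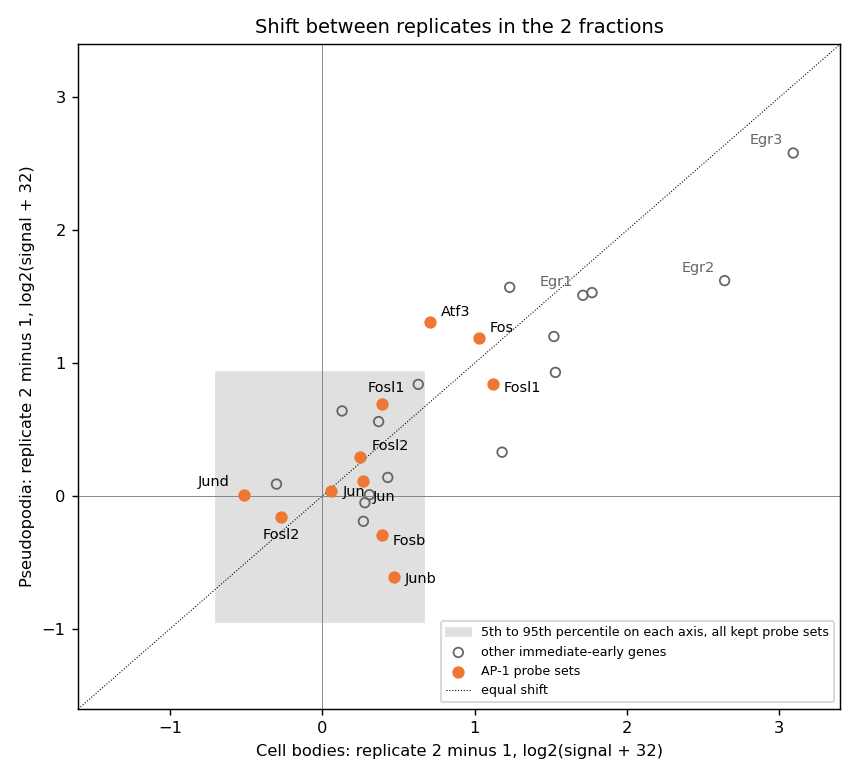
Replicate 2 minus replicate 1 in cell bodies (x axis) and in pseudopodia (y axis), both log2(signal + 32); filled points are the 11 AP-1 probe sets and open points 16 other immediate-early genes, the grey box spans the 5th to 95th percentiles of all kept probe sets, and the dotted line marks equal shifts. Fos, Atf3 and Fosl1 1417487_at lie outside the box at upper right, and both Jun probe sets near the origin.

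Other immediate-early genes gave values on the same side as most AP-1 members. Of 16 measured (17 in the list), 2 were called lower and none higher, against 2.52% lower and 1.30% higher among all 10962 genes. At an unadjusted p under 0.05 the counts were 7 and 0, where 11.2% and 9.77% of all genes passed. These shares also stand behind the unadjusted counts of the lists below. With the block 10 were lower and none higher, against 11.3% and 6.84% of all kept probe sets. Those shares also stand behind the block counts of the lists below. On their brightest kept probe sets all 16 had negative values, from -1.39 to -0.01 with a median of -0.87, beside 0.01 for all genes. Other kept probe sets of these genes ran from -1.43 to 1.5, the latter for Egr3. Of the 16 genes, 13 stayed negative after median centring and 14 after quantile normalization. The 4 with the largest statistic were Dusp1, a MAP kinase phosphatase (-1.39 ± 0.19, adjusted p = 0.0203), Klf2, a zinc finger factor (-0.87 ± 0.19, adjusted p = 0.0486), and, short of the threshold, Ier5 (-0.99 ± 0.22) and the growth regulator Myc (-1.03 ± 0.23). Ier5 and Myc passed with the block (adjusted p = 0.00314 and 0.00149, and 0.00149 to 0.372 over all alternatives). On its brightest kept probe set the nuclear long noncoding RNA Neat1 stood lower still at -2.17 ± 0.21 (adjusted p = 0.0131), and Malat1, another, at -1.39 ± 0.50 without passing (adjusted p = 0.154). The other kept probe set of Neat1 stood at -0.83, and those of Malat1 ran from -1.14 to 0.56. Malat1 passed with the block (adjusted p = 0.000883, and 6.99e-07 to 0.458 over all alternatives), and its value was -0.50 without pseudopodia replicate 1 and -2.28 without pseudopodia replicate 2. Klf2 lost its call after median centring (-0.71), without the filter and with a pseudocount of 1. Of 10 RNAs that earlier results of these data placed in protrusions, 7 were higher, with a median of 1.79, while Jun and Fosb were called in the other direction; this list was drawn up with those results known.

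RNAs of proteins that work with AP-1 had values on both sides. Of 9 other bZIP genes measured that can pair with Fos or Jun proteins (14 in the list), Mafg, a small Maf protein, was called lower (-1.03 ± 0.21, adjusted p = 0.0421; its dimmer probe set stood at -0.71, and the call was lost after median centring or quantile normalization) and none higher (3 and 4 at an unadjusted p under 0.05), around a median of 0.29 (-0.03 when scaled on hybridization controls). The next by statistic did not pass. Atf2, which pairs with Jun at the Jun promoter, stood at 0.80 ± 0.23. On its other kept probe sets Atf2 stood at 0.3, 0.65, -0.5 and -0.23. Nfe2l1 stood at -1.14 ± 0.37, and Jdp2, a repressor that pairs with Jun proteins, at 0.72 ± 0.24. With the block 3 were lower and 3 higher, among them Atf2 (adjusted p = 0.0117), Nfe2l1 (0.000975) and Jdp2 (0.00798), whose adjusted p ran from 5.36e-06 to 0.514 over all alternatives. Of 12 transcription factors and cofactors of the Fos and Jun promoters none was called (2 lower and 1 higher at an unadjusted p under 0.05), with a median of -0.03; Stat3 stood at -0.95 ± 0.32, Mrtfa at -0.59 ± 0.22, Creb1 at 0.70 ± 0.26 and Mef2d at -0.46 ± 0.23. With the block 2 were lower, Stat3 (adjusted p = 0.00149) and Mrtfa (0.0332), and over all alternatives their adjusted p ran from 2.38e-05 to 0.698. On its other kept probe sets Stat3 stood at 0.11, -1.05 and -0.33. Srf, which binds the Fos promoter, stood at -0.08 ± 0.33.

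Of 11 kinases that act on AP-1 (16 in the list), none was called (0 lower and 1 higher at an unadjusted p under 0.05), with a median of 0.06 (-0.26 when scaled on hybridization controls). Rps6ka3 (RSK2), which phosphorylates c-Fos, came closest at 1.00 ± 0.23 (adjusted p = 0.0574), and its other kept probe set stood at 0.08. On its brightest probe set it was the 1 kinase higher with the block (adjusted p = 0.00635, and 0.141 when scaled on hybridization controls without the block). Next by statistic were Map2k2 at 0.36, Rps6ka5 at 0.80 and Mapk7 at -0.38. Mapk8 (JNK1), the kinase of c-Jun, stood at 0.06 ± 0.24, and at -0.74 and 0.1 on its other kept probe sets. The median and counts hold for brightest probe sets only, and other kept ones could differ widely. Mapk14 stood at 0.02 on its brightest and at -1.0, -1.48, -0.94 and -1.1 on the others. Gsk3b stood at 0.18, with 1 other probe set lower than any of Mapk14 and the rest from -0.31 to 0.58. Csnk2a1 stood at 0.03, with the others from -0.29 to 0.72. None of 7 ubiquitin ligase parts and coactivators was called, also at an unadjusted p under 0.05. On their brightest kept probe sets all lay between -0.29 and 0.21, while their other kept probe sets ran from -1.13 to 0.28. Among 14 genes of mRNA decay, which includes the proteins that bind AU-rich elements such as that of Fos RNA, none was called (3 lower and 2 higher at an unadjusted p under 0.05). Zfp36 (tristetraprolin), itself an immediate-early gene, stood at -1.16 ± 0.29 (adjusted p = 0.0651). Zfp36l2 stood at -0.73 ± 0.18, and at 0.31 on its other kept probe set. The deadenylase Cnot7 stood at 0.82 ± 0.22, with 0.31 and 0.79 on its other kept probe sets, and Exosc9 at 0.63 ± 0.22. With the block Zfp36 (adjusted p = 0.00108) and Zfp36l2 (0.00167) were lower and Cnot7 (0.00546) higher, with adjusted p from 0.000716 to 0.439 over all alternatives. Of 9 textbook AP-1 targets (16 in the list) none was called (1 lower at an unadjusted p under 0.05), with a median of -0.28, and the largest statistics were those of Cd44, a hyaluronan receptor (-0.53 ± 0.16), Plaur (-0.46), Vegfa (-0.49) and Ccnd1 (0.26). Cd44 was lower with the block (adjusted p = 0.0134, and up to 0.489 over all alternatives). The collagenase and stromelysin genes Mmp3, Mmp10 and Mmp13 were under the filter.

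**Figure D4:**
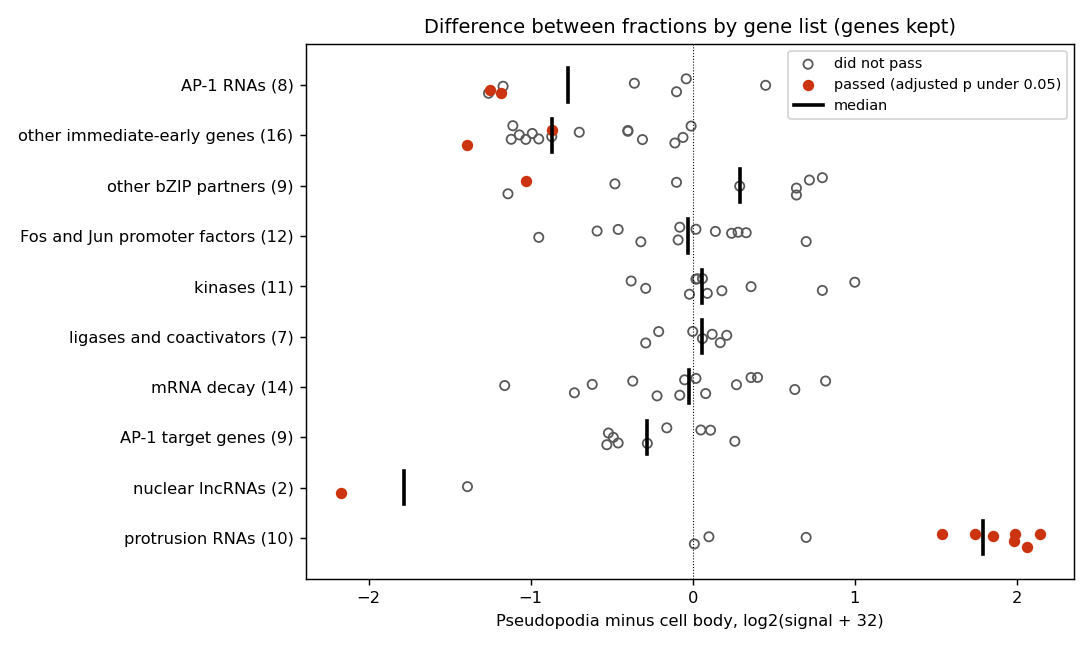
Log2 difference between pseudopodia and cell bodies for the genes of each list, each gene at its brightest kept probe set; filled points passed the test, open points did not, black bars are list medians and the number kept is in brackets. The AP-1 RNAs (median -0.77) and the other immediate-early genes (median -0.87) lie mostly left of 0, the 2 nuclear long noncoding RNAs farther left, the protein lists on both sides, and the protrusion RNAs (median 1.79) to the right.

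The 5 genes whose profile over the 4 arrays was nearest to the mean profile of the 8 members were Dus4l, Slc26a6, Tmem35b, Tnfrsf12a and Mettl21a. Their root mean square differences were 0.0251 to 0.0457 log2 units over 4 arrays, out of 10954 candidates, and their own differences ran from -0.66 to -0.55, none of which passed. The members themselves lay 0.15 (Fosl2) to 0.64 (Jund) from that mean, so it described none of them closely.

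Median centring moved all member values up, and scaling on hybridization controls moved all of them down. Quantile normalization moved them unequally, with Fos going from -1.26 to -1.14 and Jund 1449117_at from 0.45 to 0.22. The median of all kept probe sets was -0.03 as reported, 0.13 after median centring and -0.34 after scaling on 9 hybridization control probe sets. Fos, Fosb, Jun on both probe sets, Junb, Fosl1 1417488_at and Fosl2 1437247_at kept negative values and Jund 1449117_at a positive one under every scaling tried, while Fosl1 1417487_at, Fosl2 1422931_at and Atf3 changed sign in at least 1. The calls were less steady. Jun passed under each scaling and pseudocount tried, with values from -1.53 to -1.03, and Fosb did not pass after median centring (-1.10) or quantile normalization (-1.11). Neither passed without the variance trend (adjusted p = 0.0845 for Jun and 0.0987 for Fosb), where no probe set of the array did (2916 lower and 1571 higher at an unadjusted p under 0.05). Nor did any without cell body replicate 1 (1588 and 914) or cell body replicate 2 (1853 and 1106), fits in which the lone cell body array is assumed to vary like the pseudopodia arrays.

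**Figure D5:**
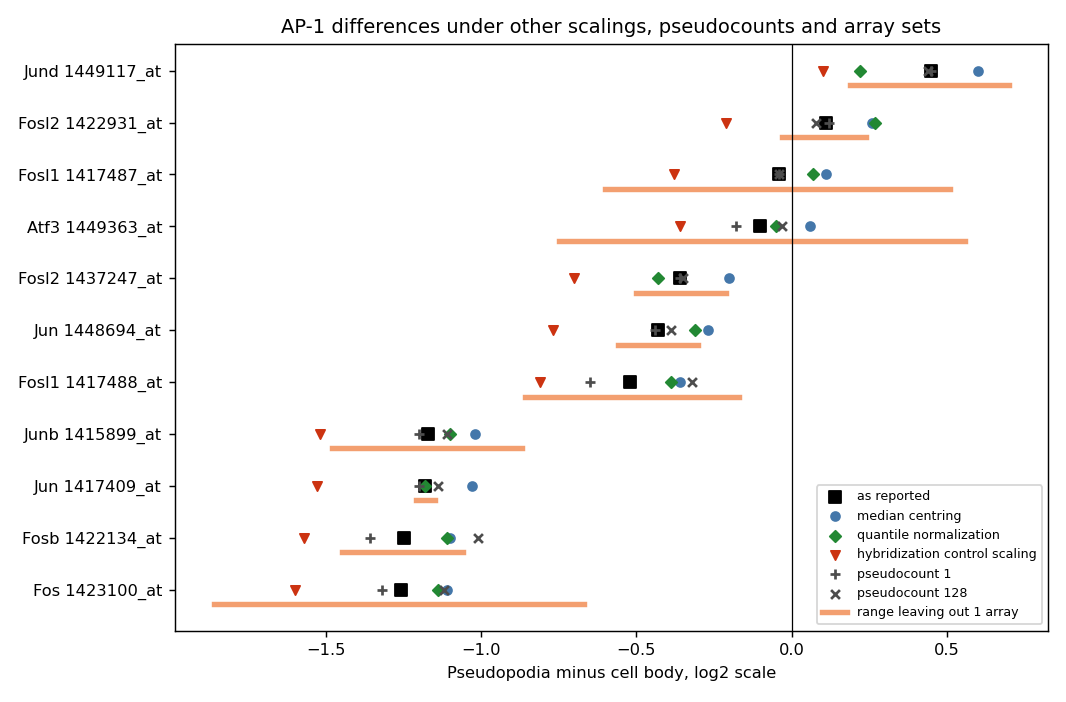
Log2 difference between pseudopodia and cell bodies for the 11 kept AP-1 probe sets as reported (black squares), under 3 other scalings and 2 other pseudocounts (symbols), and the range when 1 array at a time is left out (orange bars). Fos, Fosb, Jun 1417409_at and Junb stay left of 0 throughout, Jun within -1.21 to -1.15 without any 1 array and Fos within -1.86 to -0.67.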

How the data were processed

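RNA of 2 pseudopodia and 2 cell body samples of LPA-stimulated NIH/3T3 cells was hybridized to 4 Affymetrix Mouse430_2 arrays of 1 lot, read on 1 scanner, per the file headers. The authors deposited an intensity for each probe set of an array, the MAS5 signal per the submitters' processing notes (version not given in the sources used here). The trimmed mean (2% off each end) was 250 on all arrays, so the deposited values were already scaled, and differences are relative to each fraction's total. MAS5 makes dim probe sets noisy. Depth is not defined for arrays, and their number limits the precision.

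Signals were scaled to 500, transformed as log2(value + 32), and filtered to probe sets whose mean log2 value reached the median of the 45037 that are not controls. limma 3.58.1 in R 4.3.3 (variance trend, two-sided, Benjamini-Hochberg over 22519 probe sets, threshold 0.05) compared the fractions across all genes, without a block. Gene names came from the platform annotation. In simulated data (200 of 22519 probe sets changed, 10 runs) the fit found 2.0% of 2-fold changes and 47.7% of 4-fold ones, with the right sign in 99.5%. These shares hold for that setting only, because the adjusted p depends on how many probe sets change. The data gave more calls than that, 747 lower and 243 higher.

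Arrays with the same number are paired: they share an experiment code in the labels and a scan day in the file headers. Over kept probe sets the replicate 2 minus replicate 1 differences of the 2 fractions correlated at r = 0.243.

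Named genes are all member probe sets, the 4 genes with the largest moderated statistic in each other list, and the 5 nearest profiles. Other genes (Srf, Mapk8, Mapk14, Gsk3b, Csnk2a1, Egr1, Egr3 and those under the filter) were singled out after their values were seen. Each list gene stands at its brightest kept probe set, and its other probe sets, given for some genes only, can differ. The members and lists were chosen with earlier results of these data known. Alternatives covered pseudocount, filter, scaling, variance trend, replicate block, each array left out, a fold rule and the averaging of probe sets.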

Additional observations from a re-analysis of the deposited data

How the results depend on the processing

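Only 2 member probe sets, the brighter of Jun and that of Fosb, were called as reported, so only these could lose a call. Fosb lost it with pseudocount 1, without the filter, after median centring or quantile normalization, and without the variance trend. Jun lost it without the variance trend, and the other losses came from leaving out 1 array. Most recomputed differences belong to probe sets that were not called. Of 132 member differences recomputed under alternatives, 105 kept their direction and side of the threshold, 10 lost the call, 8 gained it and 9 changed sign. Those that changed sign were Fosl1 1417487_at (0.11 after median centring, 0.07 after quantile normalization, -0.60 to 0.51 leaving out 1 array), Fosl2 1422931_at (-0.21 on hybridization controls, -0.03 to 0.24 leaving out 1 array) and Atf3 (0.06 after median centring, -0.75 to 0.56 leaving out 1 array). AP-1 probe sets lower numbered 1 after median centring, after quantile normalization, without the filter and with pseudocount 1, 0 without the variance trend (3 at an unadjusted p under 0.05 in limma), 4 with the replicate block, and 0 to 4 leaving out 1 array; those higher numbered 1 with the replicate block and 0 in the other fits. The median of the members was -1.11 on hybridization controls, -0.54 with probe sets averaged, and -0.91 to -0.44 leaving out 1 array.

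Over all probe sets, lower and higher calls numbered 747 and 243 as reported, 2546 and 1541 with the replicate block (the 990 calls all kept), 472 and 385 after median centring, 1869 and 71 on hybridization controls, 495 and 158 with pseudocount 1, 137 and 39 without the filter, and 1769 and 629 by the 1.5-fold rule. Without the variance trend both were 0, and leaving out 1 array gave 0 to 2652 lower and 0 to 1304 higher. Outside the members, values changed sign for Cops5 (-0.14), Cop1 (-0.17) and Ccnd1 (-0.08) on hybridization controls, and leaving out 1 array for Cop1 (-0.05 to 0.39), Ccnd1 (-0.23 to 0.75), Vegfa (-1.01 to 0.04) and Ep300 (-0.54 to 0.11). The other immediate-early genes called lower numbered 0 without the variance trend, 6 on hybridization controls, 10 with the replicate block and 0 to 12 leaving out 1 array. The cause of these changes was not tested. Signal near the filter limits Atf3, Fosl1 1417488_at and the dimmer Jund probe set.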
